A study of Homo sapiens with 6 samples.

Results

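The interleukin-1 (IL-1) family ligands and receptors were examined in HL60 cells, an established human promyelocytic leukemia line that differentiates toward granulocytes when given tretinoin. They were taken as every Affymetrix HG-U133A probe set annotated to exactly 1 of IL1A, IL1B, IL1RN, IL1R1, IL1R2, IL1RAP, IL18, IL18R1, IL18RAP and SIGIRR, which gave 20 probe sets for these 10 genes among 22283 probe sets and 11963 genes with a probe set of their own. Cells received 1 μM tretinoin (all-trans retinoic acid) in dimethyl sulfoxide (DMSO) at a final 0.1%, and their controls received the same 0.1% DMSO without tretinoin. Both were kept for 5 days, and 3 arrays were deposited for each. The study describes the arrays of a condition as hybridizations of 1 pooled labeled product from a single cell line, so p-values here measure the spread between hybridizations and not between cultures.

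IL-1 family cytokines are alarm signals of myeloid cells. IL1B and IL18 encode precursors that caspase-1 cleaves inside inflammasomes, whereas the IL1A precursor is active without that step, and IL1RN encodes an antagonist that occupies the receptor without signaling. IL-1 binds the IL1R1 chain, which then recruits IL1RAP, and the paired TIR domains gather MYD88 and the IRAK kinases to activate NF-kappaB. IL1R2 is a decoy with no signaling domain, IL18R1 and IL18RAP form the IL-18 receptor, and SIGIRR is a receptor of the same fold that restrains signaling by its relatives.

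Of the 10 genes, 4 had a probe set that was higher in tretinoin, namely the ligands IL1B and IL18, the accessory chain IL1RAP and the inhibitory receptor SIGIRR. The IL1RAP call was lost under 9 of 19 alternative settings. IL1A and the antagonist IL1RN had tested probe sets that were not called. The 4 remaining genes, IL1R1, IL1R2, IL18R1 and IL18RAP, gave signals below 20 on all 6 arrays. Signals are MAS5 intensities multiplied so that every array had the same mean, and 20 is the floor that the study set for its own arrays. Differences were tested with limma on log2 signals after values below 20 were set to 20, over the 13374 probe sets whose signal exceeded 20 on 3 or more arrays. A call required a Benjamini-Hochberg adjusted p under 0.05 together with a fitted fold of 1.5 or more. Of the 20 probe sets, 11 passed the filter, and of these 6 were called higher and 0 lower by limma (0 lower at an unadjusted p under 0.05). Over all probe sets tested, 13.6% were called higher and 13.8% lower. One of the 11, IL1A 210118_s_at, passed the filter through its tretinoin arrays alone, so the count over those tested is not read as evidence about the family.

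**Figure D1:**
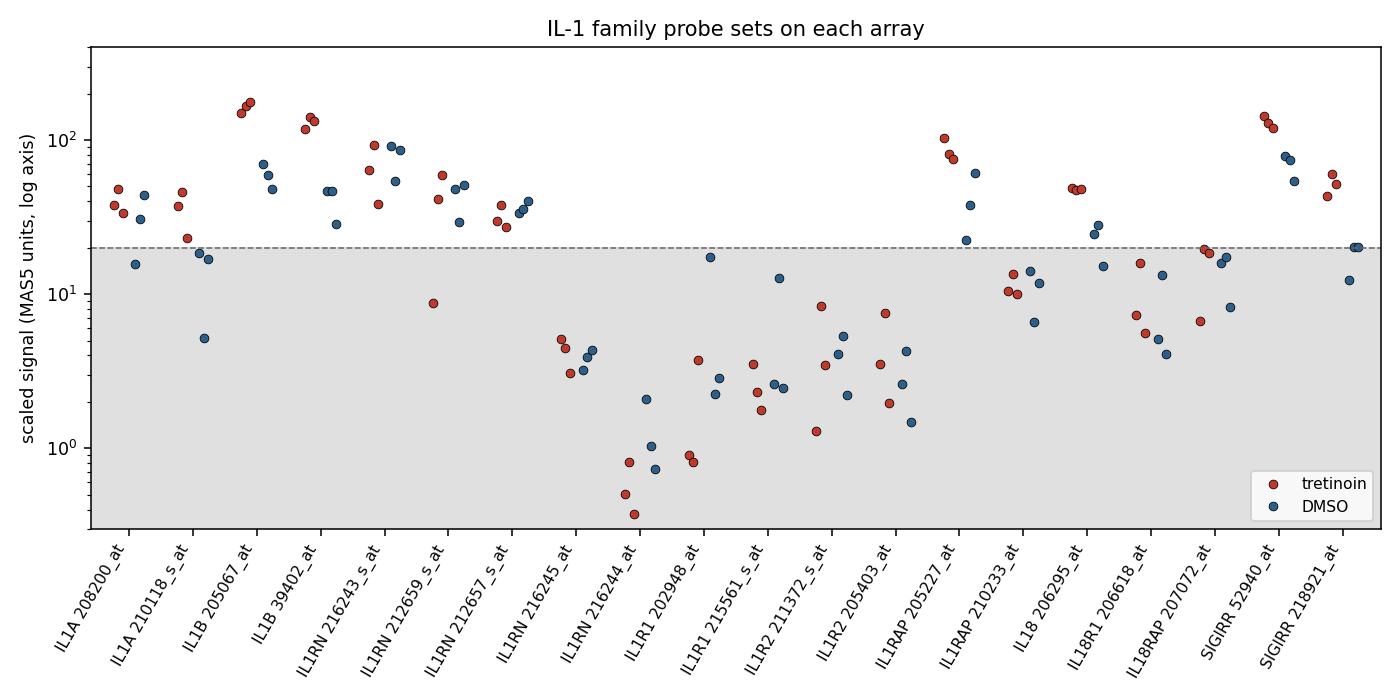
Scaled signal of the 20 IL-1 family probe sets on each array (log axis, MAS5 units), with tretinoin arrays in red to the left of DMSO arrays in blue and each point 1 array. The gray area marks signals below 20, where all points of IL1R1, IL1R2, IL18R1 and IL18RAP lie, whereas both IL1B probe sets have all 3 tretinoin arrays above all 3 DMSO arrays.

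Promoter sequences were taken for the genes whose signals rose, since these are the regions their changes could be set against. RefSeq (GRCh38.p14) gave 19 start sites for 9 of the 10 genes, with no entry for IL18. The 250 bases before the single start site of IL1B, SIGIRR and IL1RAP are shown 5′ to 3′ on the strand of the gene, with matches to the motifs searched in capitals.
IL1B promoter, chr2:112836780-112837029, minus strand: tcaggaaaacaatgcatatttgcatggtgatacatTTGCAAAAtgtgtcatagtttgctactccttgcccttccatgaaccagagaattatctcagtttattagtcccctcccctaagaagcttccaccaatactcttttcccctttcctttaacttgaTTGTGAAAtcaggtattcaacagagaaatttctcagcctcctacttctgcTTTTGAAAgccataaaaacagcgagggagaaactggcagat
SIGIRR promoter, chr11:417398-417647, minus strand: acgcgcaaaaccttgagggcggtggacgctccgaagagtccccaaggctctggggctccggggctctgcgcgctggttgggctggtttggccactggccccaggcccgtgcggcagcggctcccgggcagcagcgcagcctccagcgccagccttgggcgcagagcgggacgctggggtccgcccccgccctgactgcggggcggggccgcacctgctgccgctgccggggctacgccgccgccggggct
IL1RAP promoter, chr3:190513835-190514084, plus strand: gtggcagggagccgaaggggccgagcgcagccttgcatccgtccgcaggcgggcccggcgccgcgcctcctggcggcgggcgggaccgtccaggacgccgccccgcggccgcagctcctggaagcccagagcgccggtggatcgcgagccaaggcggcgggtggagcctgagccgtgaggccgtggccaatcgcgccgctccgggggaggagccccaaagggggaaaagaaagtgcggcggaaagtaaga
The motifs, each searched on both strands, were TATAAA (the TATA box), AGGTCA (the repeat unit bound by retinoid receptors), TGANTCA (AP-1), TTNNGNAA (C/EBP factors), GAGGAA (the core bound by PU.1 and other ETS factors) and the NF-kappaB consensus. The IL1B window held 3 matches to TTNNGNAA that did not overlap each other, the nearest of them ending 34 bases before the start, and no match to the other motifs. The SIGIRR and IL1RAP windows held no match to any of them. TTNNGNAA was not particular to IL1B: 10 of the 19 windows of the family held it, from 6 genes, among them IL1A and IL1RN, which were not called, and IL1R1, IL1R2 and IL18RAP, which were below 20. Some windows of IL1A, IL1RN and IL18RAP overlap and share a match, so the 10 are not independent. Among 35116 promoter windows of the same length, 33.2% held TTNNGNAA, 23.6% GAGGAA, 12.1% AGGTCA, 10.7% TATAAA, 9.96% the NF-kappaB consensus and 6.57% TGANTCA. The windows differed more in base composition. That of IL1B was 40% G and C with 1 CG dinucleotide, against 76.8% and 28 for SIGIRR and 74.8% and 33 for IL1RAP, beside medians of 58.0% and 11 over all windows. A match of letters is a description of the window and was not measured as a binding site here.

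IL1B, the main secreted IL-1 of myeloid cells, was higher on both of its probe sets. On 205067_at its scaled signal was 149.8, 168 and 177 on the tretinoin arrays and 70.4, 59.6 and 48.2 on the DMSO arrays. On 39402_at it was 118, 142 and 132 with tretinoin and 46.8, 46.8 and 28.6 with DMSO. In both cases every tretinoin array lay above every DMSO array, and the lowest tretinoin signal exceeded the highest DMSO signal by a clear margin. The averages on 205067_at were 165 ± 13.7 with tretinoin and 59.4 ± 11.1 with DMSO (SD, n = 3 arrays each). The fitted rise was 2.80-fold (log2 1.49, 95% interval 1.08 to 1.89, limma adjusted p = 0.000787). On 39402_at the averages were 131 ± 12.1 and 40.7 ± 10.5 for tretinoin and DMSO, and the fitted rise was 3.28-fold (log2 1.71, 95% interval 1.20 to 2.23, limma adjusted p = 0.00121). The intervals of the 2 probe sets overlapped, and both calls held under all 19 alternative settings.

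IL18, which encodes a ligand best known for driving interferon-gamma in lymphocytes, was also higher, at low signal. Its only probe set gave 48.6, 47.6 and 48.4 on the tretinoin arrays and 24.7, 28.2 and 15.3 on the DMSO arrays. The tretinoin arrays were nearly identical, and 1 of the DMSO arrays was below 20. The rise was therefore a bound of at least 2.0-fold (log2 1.00, SE 0.16, limma adjusted p = 0.0029).

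IL1A, whose product acts without caspase-1, was not called on either probe set. On 210118_s_at the signal was 37.3, 46.4 and 23.1 with tretinoin and 18.4, 5.23 and 16.8 with DMSO. The arrays did not overlap on it, but all DMSO arrays were below 20 and the adjusted p was 0.0541 by limma (log2 0.77, SE 0.25). It was called higher under 5 of 15 alternatives, among them median scaling (limma adjusted p = 0.0258) and a floor of 10 (limma adjusted p = 0.0393), and over all 15 the adjusted p ran from 0.0258 to 0.563. On 208200_at the signal was 38.1, 48.1 and 33.9 with tretinoin and 15.8, 30.8 and 44.1 with DMSO. Here the groups overlapped, with a DMSO array between the tretinoin arrays (log2 0.40, 95% interval -0.30 to 1.10, limma adjusted p = 0.364).

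IL1RN, the receptor antagonist, was measured on 3 of its 5 probe sets and called on none. On 216243_s_at the signal was 63.7, 93.4 and 38.5 with tretinoin and 92.0, 54.4 and 85.7 with DMSO. On 212659_s_at it was 8.72, 41.3 and 58.9 with tretinoin and 48.2, 29.4 and 50.8 with DMSO. On 212657_s_at it was 30.0, 37.6 and 27.4 with tretinoin and 33.6, 35.6 and 40.2 with DMSO. The groups overlapped on each, and the probe sets did not share the array that was lowest among the tretinoin arrays: replicate 3 was lowest on 216243_s_at and 212657_s_at but replicate 1 on 212659_s_at. The fitted log2 changes were -0.30 (95% interval -1.13 to 0.53), -0.19 (-1.16 to 0.78) and -0.21 (-0.60 to 0.17), with limma adjusted p from 0.379 to 0.781. A rise of 1.5-fold lay outside the intervals of 216243_s_at and 212657_s_at but inside that of 212659_s_at. Leaving out 1 array turned the sign on 212659_s_at (log2 0.25 without tretinoin replicate 1) and on 216243_s_at (log2 0.03 without tretinoin replicate 3). The other probe sets, 216245_at and 216244_at, were below 20 on all arrays.

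**Figure D2:**
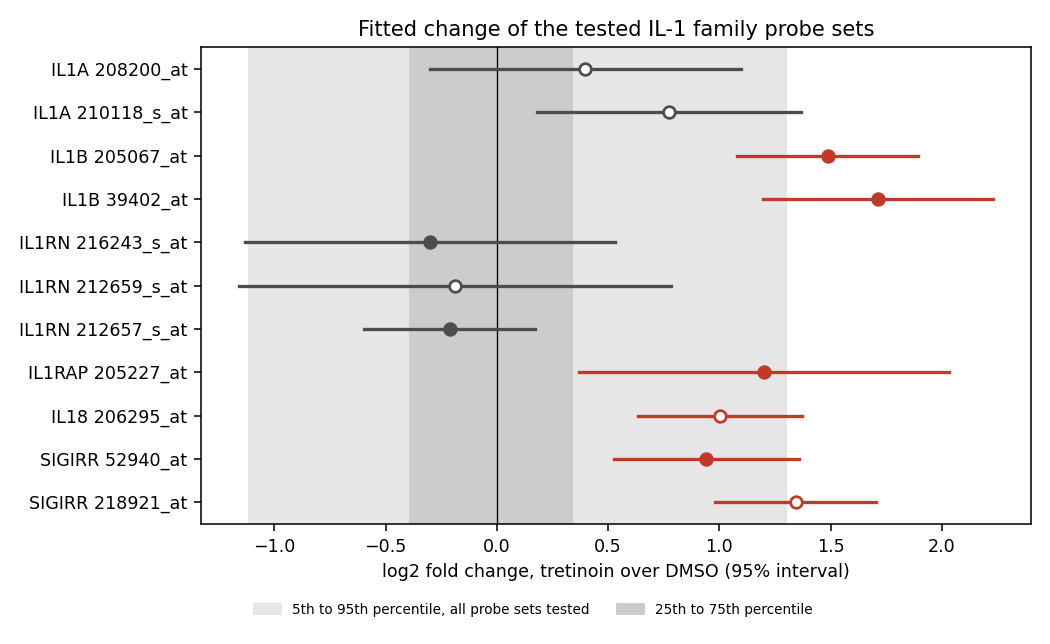
Fitted log2 fold change of tretinoin over DMSO for the 11 tested IL-1 family probe sets, with bars for 95% intervals from limma. Red marks those called higher, gray those not called, open points those where a condition has arrays below 20, and the shaded bands the spread over all 13374 probe sets tested. IL1B lies farthest to the right at 1.49 and 1.71, and the IL1RN points lie left of 0.

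Of the receptors, IL1RAP and SIGIRR gave signal above 20. IL1RAP, the chain shared by the IL-1 receptor and several relatives, gave 103.5, 80.7 and 75.3 on the tretinoin arrays and 22.4, 37.8 and 61.2 on the DMSO arrays with 205227_at. All tretinoin arrays were higher, but the DMSO arrays spread widely and the highest of them came close to the lowest tretinoin array. Before scaling the groups overlapped, with DMSO replicate 3 at 74.6 and tretinoin replicate 2 at 59.2. The averages were 86.5 ± 15.0 for tretinoin and 40.5 ± 19.5 for DMSO (SD, n = 3 arrays each), a fitted rise of 2.30-fold (log2 1.20, 95% interval 0.37 to 2.03, limma adjusted p = 0.038). Over the alternatives its limma adjusted p ran from 0.0101 to 0.18. It did not pass without DMSO replicate 1 (limma adjusted p = 0.0635), DMSO replicate 2 (0.0881), tretinoin replicate 1 (0.111), tretinoin replicate 2 (0.0739) or tretinoin replicate 3 (0.0722). Without DMSO replicate 3 the rise was larger, at 1.56 on the log2 scale. The second IL1RAP probe set, 210233_at, gave 10.4, 13.5 and 9.95 with tretinoin and 14.2, 6.56 and 11.8 with DMSO and was not tested.

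SIGIRR, the inhibitory receptor, was higher on both of its probe sets. On 52940_at the signal was 142, 130.1 and 120.0 with tretinoin and 78.5, 73.8 and 54.1 with DMSO. The averages were 131 ± 11.3 and 68.8 ± 12.9 for tretinoin and DMSO (SD, n = 3 arrays each), a fitted rise of 1.92-fold (log2 0.94, 95% interval 0.52 to 1.36, limma adjusted p = 0.00646). On 218921_at the signal was 43.1, 60.01 and 51.6 with tretinoin and 12.4, 20.2 and 20.3 with DMSO. The arrays did not overlap on either probe set. On 218921_at 1 DMSO array was below 20 and the others barely above it, so the rise was a bound of at least 2.54-fold (log2 1.34, SE 0.15, limma adjusted p = 0.000727).

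The ligand-binding chains and IL18RAP were not measured above the floor in either condition. IL1R1, the signaling receptor of IL-1, reached at most 3.75 on the tretinoin arrays and 17.4 on the DMSO arrays over 2 probe sets. The decoy IL1R2 reached at most 8.32 with tretinoin and 5.33 with DMSO over 2 probe sets. IL18R1, which binds IL-18, reached at most 15.8 with tretinoin and 13.3 with DMSO, and its partner IL18RAP 19.8 and 17.4. On the array as a whole, 26.9% of probe sets were below 20 on every array, against 9 of the 20 probe sets of the family. Signals this low show no order between conditions, and they do not show that a transcript was absent. In the RefSeq annotation IL1R2, IL1R1, IL18R1 and IL18RAP stand in this order on chromosome 2 with only the protein-coding genes IL1RL2 and IL1RL1 among them. IL1A and IL1B are neighbors elsewhere on chromosome 2, with the IL-36 and IL-37 genes between IL1B and IL1RN, so IL1B rose beside a neighbor that was not called.

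Over the 11 tested probe sets, the tretinoin arrays all lay above the DMSO arrays on 7, against 21.7% of all probe sets tested, and on 0 did they all lie below, against 24.3% of all. The 7 were the 6 called and IL1A 210118_s_at, which passed the filter through its tretinoin arrays alone. IL1B and SIGIRR each count on both of their probe sets, so these counts are a description only. With 3 arrays against 3, the smallest p an exact two-sided permutation test can give for a single probe set is 0.1, so single values were judged by the limma fit. Without scaling between arrays the median log2 change over the array was -0.21 in place of -0.03, and 33.1% of all calls were rises in place of 49.6%. The same 6 family probe sets were called with and without scaling.

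Few of the other genes of the family passed the filter. Of 12 further ligands, receptors and binding proteins, 10 were on the array, 3 passed the filter (IL36A, IL1RAPL2 and IL18BP), and none was called by limma (0 at an unadjusted p under 0.05). Their median log2 change was -0.13, against -0.03 over all probe sets tested. IL18BP, the secreted inhibitor of IL-18, gave 21.5, 53.3 and 4.79 with tretinoin and 24.0, 4.31 and 17.1 with DMSO, a spread within each condition that leaves no order. IL33 and IL37 were below 20 on all arrays. Genes of the pathway are given by their brightest probe set from here on.

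Of 16 genes of the inflammasome and of ligand maturation, 13 were on the array and 9 tested, of which 2 were higher, 1 was lower and 6 were not called. These counts are near the shares over all probe sets tested, 13.6% higher and 13.8% lower. The median log2 change of the 9 was 0.28, against -0.03 over all. PYCARD, the adaptor that links inflammasome sensors to caspase-1, gave 459, 433 and 433 with tretinoin and 186, 150.0 and 121 with DMSO, a rise of 2.94-fold (limma adjusted p = 0.00073). GSDMD, whose cleaved form makes the membrane pore through which IL-1 leaves the cell, gave 43.6, 39.4 and 31.2 with tretinoin and 22.0, 16.9 and 22.1 with DMSO, a rise of at least 1.76-fold (limma adjusted p = 0.00758). All arrays of both genes were higher with tretinoin. The GSDMD call was lost without scaling, with a floor of 40, with a fold minimum of 2 and when 16 was added to all signals instead of a floor. P2RX7, the ATP-gated channel that triggers the NLRP3 inflammasome, gave 10.6, 37.9 and 1.31 with tretinoin and 47.7, 60.8 and 80.0 with DMSO, and was at least 2.48-fold lower (limma adjusted p = 0.0158). That call was lost under 5 of 18 alternatives, among them a floor of 40 and no filter. The others left out DMSO replicate 3, tretinoin replicate 1 or tretinoin replicate 3 (limma adjusted p = 0.0515, 0.0538 and 0.0557, within 0.000448 to 0.101 over its alternatives). CASP1, the protease itself, is named for its role after its values were seen. It had 5 probe sets, with log2 changes from 0.28 to 0.58. After scaling, all tretinoin arrays lay above all DMSO arrays on each, which also held for 21.7% of all probe sets tested. Without scaling the log2 changes ran from 0.08 to 0.38, with limma adjusted p from 0.325 to 0.855. With scaling the limma adjusted p was under 0.05 on 3 of the 5, but none reached 1.5-fold and none was called. The largest change was 1.49-fold on 206011_at (limma adjusted p = 0.00981). That probe set was called under 5 of 19 alternatives, and over all 19 its limma adjusted p ran from 0.00302 to 0.325. The brightest CASP1 probe set, 211366_x_at, had the smallest change. Probe sets whose names end in _x_at, that one included, can also bind related transcripts. NLRP3, the sensor, named on the same ground, gave 5.41, 7.23 and 3.94 with tretinoin and 16.5, 16.1 and 37.7 with DMSO on 207075_at. On 216015_s_at it gave 1.905, 4.228 and 1.783 with tretinoin and 16.8, 22.97 and 29.61 with DMSO. A further probe set, 216016_at, was below 20 on all arrays, and NLRP3 was not tested on any. All tretinoin arrays lay below all DMSO arrays on each, which also held for 24.3% of all probe sets tested. Most of these NLRP3 signals were below 20.

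**Figure D3:**
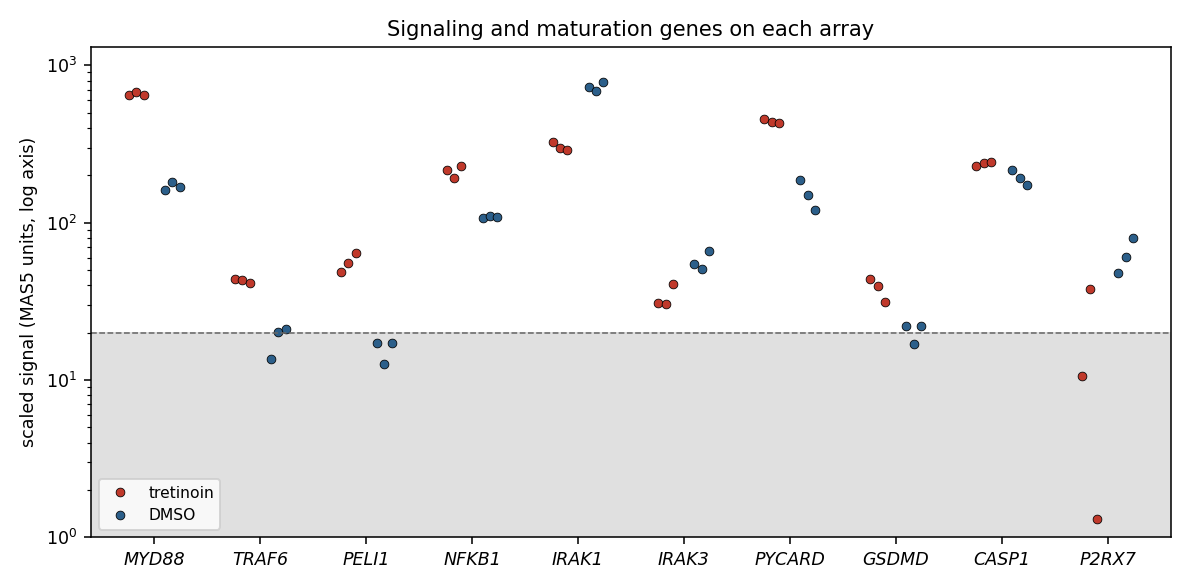
Scaled signal on each array (log axis, MAS5 units) of signaling and maturation genes by their brightest probe set, tretinoin in red to the left of DMSO in blue, each point 1 array, with signals below 20 shaded. MYD88 and PYCARD are higher and IRAK1 is lower on every tretinoin array, whereas those of CASP1, shown by the probe set with the smallest change of its 5, lie close together.

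Of 20 signaling genes downstream of the receptors, 17 were on the array and 15 tested, of which 4 were higher, 2 were lower and 9 were not called. Over all probe sets tested 13.6% were higher and 13.8% lower, so the 2 lower of 15 are near that share. The median log2 change of the 15 was 0.19, against -0.03 over all. MYD88, the adaptor used by IL-1, IL-18 and most Toll-like receptors, gave 646, 673 and 649.7 with tretinoin and 160.1, 180.0 and 168 with DMSO, a rise of 3.88-fold (limma adjusted p = 6.65e-05). IRAK1, a kinase recruited by MYD88, gave 327, 298 and 289 with tretinoin and 724, 689.7 and 779 with DMSO and was 2.40-fold lower (limma adjusted p = 0.000403). So the adaptor was higher and the kinase lower on every array. IRAK3, a relative that lacks kinase activity and damps the pathway in macrophages, gave 31.0, 30.3 and 40.7 with tretinoin and 54.8, 50.7 and 65.7 with DMSO, 1.68-fold lower (limma adjusted p = 0.0155). That call was lost under 6 of 19 alternatives, among them a floor of 40, no filter and a fold minimum of 2. These included leaving out DMSO replicate 3 or tretinoin replicate 1 (limma adjusted p = 0.0501 and 0.0559, within 0.0098 to 0.0573 over its alternatives). TRAF6, the ubiquitin ligase after the IRAKs, gave 44.0, 43.4 and 41.6 with tretinoin and 13.5, 20.3 and 21.1 with DMSO, a rise of at least 2.10-fold (limma adjusted p = 0.000553). PELI1, an IRAK-binding ubiquitin ligase, rose at least 2.79-fold (limma adjusted p = 0.000344), with all its DMSO arrays below 20, so that it entered the test through its tretinoin arrays alone. NFKB1, which encodes the p105 and p50 proteins of NF-kappaB, gave 215, 192 and 230.3 with tretinoin and 107, 111 and 108 with DMSO, a rise of 1.95-fold (limma adjusted p = 0.00136). The TRAF6 and PELI1 calls were lost with a floor of 40 (log2 0.10 and 0.48), and the NFKB1 call with a fold minimum of 2. IKBKG, named after its values were seen, was not called on its brightest probe set, 36004_at (limma adjusted p = 0.121). On 209929_s_at it was called higher (log2 0.64, limma adjusted p = 0.0274). By the probe set of largest change for each gene, 5 genes of this list were higher.

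Of 15 genes known to respond to IL-1 in many cell types, 12 were on the array and 8 tested, of which 7 were higher and 0 lower by limma (0 lower at an unadjusted p under 0.05), against 13.6% higher and 13.8% lower over all probe sets tested. Their median log2 change was 2.29, against -0.03 over all. CCL20 passed the filter through its tretinoin arrays alone, so the count and the median are given as a description only. The genes on the array that were not tested were CXCL1, CXCL2, CXCL3 and PTGS2, none of which exceeded 20 on a tretinoin array. CXCL2, CXCL3 and PTGS2 were below 20 on all arrays. CXCL1 gave 19.05, 19.91 and 14.74 with tretinoin and 25.9, 14.25 and 3.035 with DMSO. CCL2, a monocyte chemokine, gave 4825, 4719 and 5188 with tretinoin and 144, 158 and 99.5 with DMSO, a rise of 37.4-fold (limma adjusted p = 9.98e-06). NFKBIA, the inhibitor that NF-kappaB itself induces, gave 408, 293 and 357 with tretinoin and 54.8, 56.9 and 70.0 with DMSO, a rise of 5.81-fold (limma adjusted p = 0.000102). CCL20, a chemokine for CCR6-bearing cells, gave 125, 68.3 and 131 with tretinoin and stayed below 20 on all DMSO arrays, a rise of at least 5.18-fold (limma adjusted p = 0.000555). IER3, an early response gene, rose 4.90-fold (limma adjusted p = 0.000102). The other genes called, CXCL8, TNFAIP3 and ICAM1, are named after their values were seen and rose 4.85-fold, 3.34-fold and 2.17-fold, although 1 of 3 ICAM1 probe sets showed a log2 change of -0.01. IL6, a classical product of IL-1 stimulation, gave 14.9, 38.7 and 18.7 with tretinoin and 30.0, 11.1 and 28.9 with DMSO and was not called. The CCL2 and MYD88 probe sets and the second CXCL8 probe set are among the transcripts that the study picked on these same arrays, so their direction is not independent evidence.

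**Figure D4:**
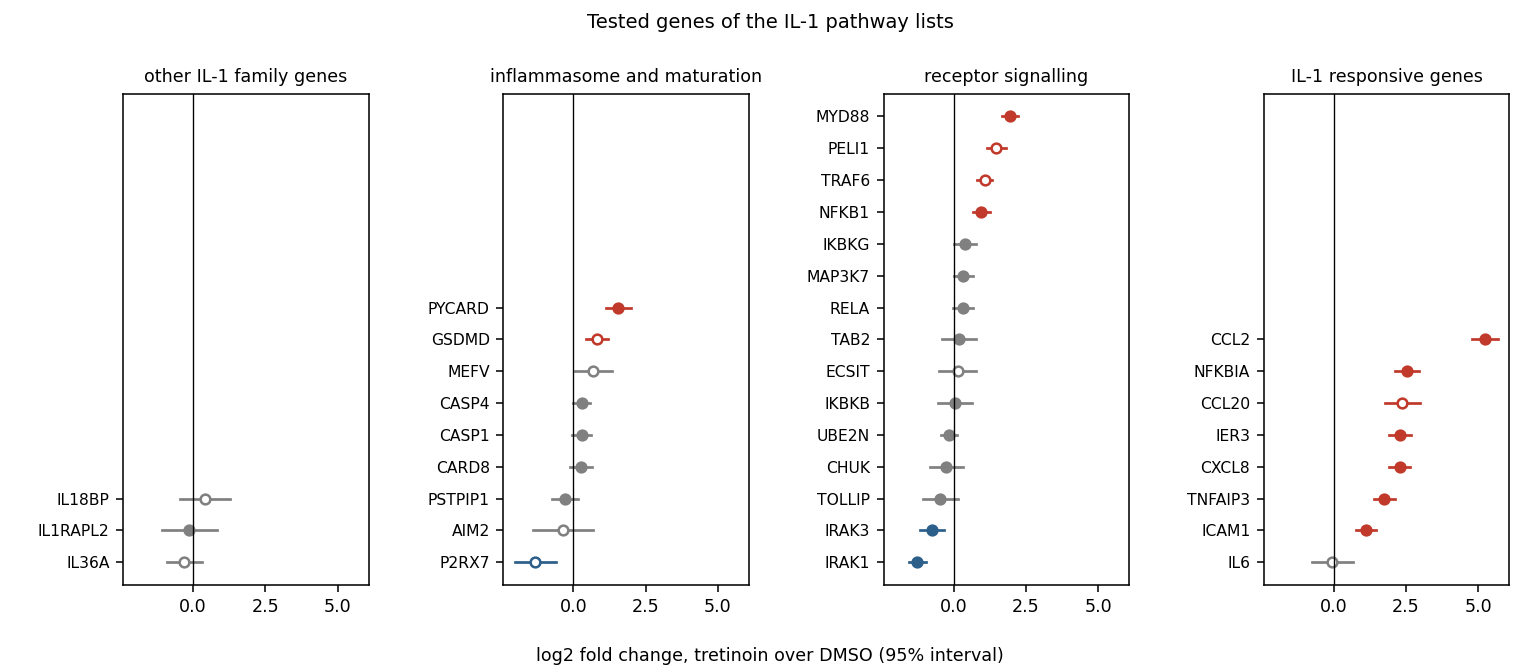
Fitted log2 fold change of tretinoin over DMSO for the tested genes of the pathway lists, with 95% intervals from limma. Points are red where called higher, blue where called lower and gray where not called. They are open where the condition with the lower fitted signal has arrays below 20. All responsive genes but IL6 lie to the right of 0, with CCL2 at 5.23, and IRAK1, IRAK3 and P2RX7 lie to the left.

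Markers of other cells were read on the same arrays. Of 8 myeloid markers, 7 were on the array and tested, of which 3 were higher (PTPRC, SPI1 and ITGAM), 3 were lower (MPO, ELANE and PRTN3) and 1 was not called. Over all probe sets tested, 13.6% were called higher and 13.8% lower. The summed signal of the 7 myeloid markers ran from 1589 to 1890 on tretinoin arrays and from 3697 to 4144 on DMSO arrays. MPO, the granule peroxidase of promyelocytes, was 24.2-fold lower with tretinoin, and ELANE, the granule elastase, was below 20 on all tretinoin arrays. Of 8 monocyte and macrophage markers, 7 were on the array and 3 tested. CD14, CSF1R and ADGRE1 were called higher, against 13.6% of all probe sets tested, but CSF1R passed the filter through its tretinoin arrays alone. CD163, MRC1 and MSR1 had too few arrays above 20 to be tested, and MARCO had none. The summed signal of the 7 ran from 574 to 668 on tretinoin arrays and from 159.8 to 190.3 on DMSO arrays. IL1B and IL18 are also genes of monocytes, and the part of such a shift in their rise was not tested. In bulk RNA, more cells of a type and more RNA per cell cannot be told apart. The summed signal of 7 T and NK cell markers ran from 185 to 284 with tretinoin and from 197 to 216 with DMSO. Of the 5 tested, NKG7 was higher and CD8A lower, against 13.6% higher and 13.8% lower over all probe sets tested. The summed signal of 3 B cell markers ran from 68.8 to 125 and from 41.7 to 106 for tretinoin and DMSO. Of the erythroid markers, HBB gave 61.0, 52.0 and 79.2 with tretinoin and 66.4, 50.4 and 62.7 with DMSO and was not called, and ALAS2 was below 20 throughout. The epithelial markers EPCAM, KRT19 and CDH1 and the endothelial CDH5 and VWF were below 20 throughout. The third endothelial marker, PECAM1, which leukocytes also express, gave 42.5, 40.1 and 45.2 with tretinoin and 62.2, 49.6 and 71.0 with DMSO and was not called (log2 -0.50, limma adjusted p = 0.0551). The control probe sets for RNA quality did not agree in direction. The 3′ over 5′ ratio of ACTB ran from 1.14 to 1.17 on tretinoin arrays and from 1.38 to 1.42 on DMSO arrays, whereas that of GAPDH ran from 1.15 to 1.19 on tretinoin arrays and from 1.06 to 1.17 on DMSO arrays, with overlap. Their part in these results was not tested.

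**Figure D5:**
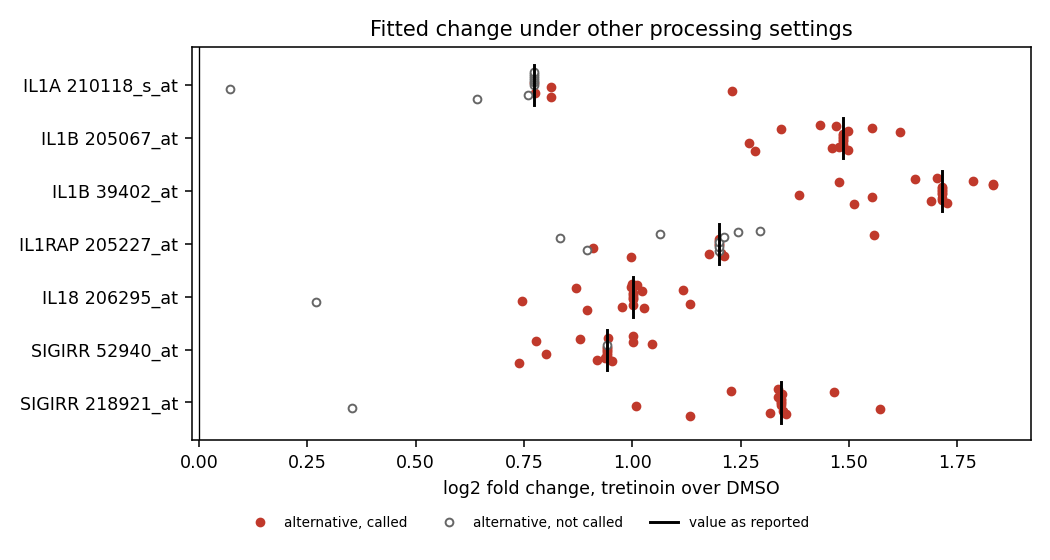
Fitted log2 fold change of tretinoin over DMSO for the 6 called probe sets and IL1A 210118_s_at under each alternative processing setting, red where called, open where not called, with black bars for the values as reported. Both IL1B probe sets are called throughout, and the IL1RAP points split between called and not called.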

How the data were processed

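Total RNA of HL60 cells was profiled on 6 HG-U133A arrays, 3 per condition. The authors deposited MAS5 signal intensity values per probe set on a linear scale, not yet brought to a common level (array means 91.3 to 152). MAS5 versions are not given in the sources used here. Every array was brought to the mean level of the first DMSO array (factors 0.820 to 1.36), a floor of 20 was applied, and limma 3.58.1 (R 4.3.3) was run on the log2 scale for probe sets exceeding 20 on 3 or more arrays. Changes are thus on a floored scale. Where arrays of the lower condition lie below 20 the fold is a bound as to the floor only, and its interval reaches lower.

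GEO's platform annotation gave 19071 probe sets 1 gene symbol, 1043 several and 2169 none. Only the first were named, with symbols updated through Entrez identifiers. A gene of the pathway stands by its brightest probe set. All family probe sets are described, and of each list the 4 largest called rises and falls, or all where 5 or fewer were called. Further genes were named for their role, or for low signal, after their values were seen. Members, lists and tests were chosen with earlier results of these data known. The number of arrays limits the precision. Alternatives covered scaling, floor, filter, variance model, replicate block, fold minimum, probe set and each array left out. Motifs were searched with Python 3.11.15, and figures drawn with matplotlib 3.10.9.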

Additional observations from a re-analysis of the deposited data

How the results depend on the processing

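Of the 6 family probe sets called higher, both of IL1B were called under all 19 alternatives, SIGIRR 52940_at under 18 of 19, and IL18 and SIGIRR 218921_at under 17 of 18, whereas IL1RAP was called under 10 of 19. No fitted change of these 6 turned its sign. With a floor of 40, 3 family probe sets were called, since IL18, SIGIRR 218921_at and IL1RAP lost their call. With each array left out, 5 to 6 family probe sets were called higher and 0 lower, and the array as a whole had 1442 to 1734 higher and 1521 to 1967 lower, against 1824 and 1850 with all arrays. Without scaling, 1142 probe sets were higher and 2312 lower. With a fold minimum of 2, 1012 were higher and 860 lower. Pathway genes called lower numbered 3, and 1 with a floor of 40 or with no filter, and 1 to 3 with an array left out, when those called higher numbered 11 to 13, against 13 with all arrays. With a floor of 40, GSDMD, TRAF6 and PELI1 were no longer called higher. By the probe set of largest change for each gene, 15 pathway genes were called higher and 3 lower. IL1A 210118_s_at gave no value where fewer than 3 arrays above 20 were left, nor did probe sets with any array at or below 20 under the filter of 6 arrays. With the replicate numbers of the titles as a block, 5 family probe sets were called higher, and IL1RAP was not (limma adjusted p = 0.0744). Over the array 1743 were then higher and 1758 lower. Same-numbered arrays did not deviate together (correlations of deviations -0.03, -0.01 and 0.07), so the numbers were not taken to pair arrays. The causes of these differences were not tested. Signals near 20 limit IL18, IL1A and the receptor chains.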

Other observations

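NAIP, a sensor of bacterial ligands in the inflammasome list, was not tested on its brightest probe set, which gave 53.7, 16.5 and 42.9 with tretinoin and 1.6, 6.67 and 1.64 with DMSO. On its other probe set, 204861_s_at, it gave 27.7, 39.8 and 31.8 with tretinoin and 3.10, 2.56 and 2.38 with DMSO and was called higher by limma (adjusted p = 0.014), with all DMSO arrays below 20 and a rise of at least 1.64-fold. NAIP is named after its values were seen. NAIP lies in a duplicated region of the genome, and its copies may share the signal.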
